A study of Homo sapiens with 8 samples.

Results

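The peaks described here are OCT4-bound regions called in NT2/D1, a human embryonal carcinoma line cloned from a germ cell tumour line. All peaks of the list for the library titled NT2D1 OCT4 that lie on chromosomes 1 to 22 and X were taken, which gave 46094 of the list's 46169 peaks. The 6 peak lists of the series hold 201619 peaks together. The series used chromatin immunoprecipitation with sequencing (ChIP-seq) to map SOX2, OCT4 and NANOG, with an IgG background sample, in H9 embryonic stem cells and in NT2/D1 cells. Each of the 8 samples is 1 library, and the labels name no treatment and no genetic change. The OCT4 peaks therefore rest on 1 library set against 1 IgG library, with no replicate, and no difference below has a replicate check.

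The labels of this library do not all name the same factor. The title, the description and the name in the peak list's header say OCT4, whereas the source name says NANOG, and the library titled NANOG has OCT4 in its source name. The title was followed throughout. Which label is right was not settled by these data.

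OCT4, encoded by POU5F1, is a POU-domain transcription factor that holds pluripotent cells in their undifferentiated state. It binds the octamer motif, alone or beside SOX2 on a composite SOX and octamer element, often at enhancers far from gene starts. Embryonal carcinoma cells are the malignant counterpart of embryonic stem cells and share much of the same factor network. Its known partners and targets in these cells include SOX2, NANOG and POU5F1 itself.

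Sequences under the peaks themselves were not analysed here. The promoters of genes whose start lay inside a peak were searched in their place, on both strands, for the octamer ATGCAAAT and for a short composite core TTGTNATGC, in which the end of a SOX site runs into the start of an octamer. The 4 promoters below are shown because each holds a motif and has its start inside an OCT4 peak: HDAC9, PIPOX and HOXB1 are at the 3 such peaks with the highest scores, and NANOG is a core pluripotency gene. Each sequence is the 250 bases before the gene start, 5′ to 3′ on the gene's strand, from RefSeq in build GRCh38.p14, with the motif letters in capitals. HDAC9 is at chr7:18495499-18495748 on the plus strand, PIPOX at chr17:29042891-29043140 on the plus strand, HOXB1 at chr17:48531012-48531261 on the minus strand and NANOG at chr12:7789152-7789401 on the plus strand. PIPOX was picked after its values were seen.
HDAC9: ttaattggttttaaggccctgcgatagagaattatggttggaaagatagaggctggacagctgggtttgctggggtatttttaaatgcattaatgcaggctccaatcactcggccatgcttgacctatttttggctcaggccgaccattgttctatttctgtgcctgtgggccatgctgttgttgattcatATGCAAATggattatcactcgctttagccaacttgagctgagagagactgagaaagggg
PIPOX: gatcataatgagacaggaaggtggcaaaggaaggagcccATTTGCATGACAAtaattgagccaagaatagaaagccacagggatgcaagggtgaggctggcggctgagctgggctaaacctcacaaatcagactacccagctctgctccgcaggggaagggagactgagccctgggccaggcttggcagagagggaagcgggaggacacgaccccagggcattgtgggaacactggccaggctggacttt
HOXB1: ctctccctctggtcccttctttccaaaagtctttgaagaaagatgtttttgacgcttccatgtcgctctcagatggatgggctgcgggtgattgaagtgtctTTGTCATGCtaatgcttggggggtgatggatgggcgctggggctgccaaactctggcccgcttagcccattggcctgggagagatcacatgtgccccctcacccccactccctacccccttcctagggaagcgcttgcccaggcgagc
NANOG: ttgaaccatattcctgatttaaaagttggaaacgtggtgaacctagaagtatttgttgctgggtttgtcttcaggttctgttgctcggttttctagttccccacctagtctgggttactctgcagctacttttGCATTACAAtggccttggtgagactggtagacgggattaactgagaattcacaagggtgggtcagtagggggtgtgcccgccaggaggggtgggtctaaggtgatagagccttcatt
In HDAC9, a class IIa histone deacetylase gene, the octamer begins 59 bases before the start. In PIPOX, the gene of a peroxisomal sarcosine oxidase, an octamer and the composite core overlap on the minus strand. HOXB1, the most anterior gene of the HOXB cluster, has the composite core 148 bases before its start, and NANOG has it on the minus strand 117 bases before its start.

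The octamer was rare in promoters in general. It was in 492 of 27305 RefSeq promoters of 300 bases, from 250 bases before to 50 after the start (1.80%), and in 1.63% of the 14697 promoters of genes that the peak lists could assign. Among genes with a start inside a peak, 1641 of 1988 were matched to a promoter by symbol, and 36 of these held the octamer (2.19%, 95% Wilson interval 1.59 to 3.02). The share was 10 of 338 (2.96%, 1.61 to 5.36) for peaks of 20 or more tags and 3 of 58 (5.17%, 1.77 to 14.1) for peaks with a score of 100 or more. The composite core was in 0.333% of the assignable promoters, in 11 of the 1641 (0.670%, 0.375 to 1.20) and in 2 of the 58 (3.45%, 0.951 to 11.7). The SOX motif ACAAAG was in 12.6% of the assignable promoters and in 11.8% of those inside a peak (10.3 to 13.5). The octamer's interval inside peaks includes the shares of all and of assignable promoters. The composite core's interval lies above its share in assignable promoters and includes its share in all promoters, 0.604%. These matches describe the letters in the window and say nothing of where the factor sat. Intervals here and below cover counting error only, and reads without molecular identifiers are not independent molecules.

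The strongest peaks were nearest to KDM4A, ETV6 and SMAD7, and all of the first 15 by score were over 8 kb from a gene start. Strength is given by 3 values of the authors: the ChIP tag count in the peak, the fold enrichment over background, and a score of 10 times the negative log10 of the p-value. The highest score belonged to a peak of 470 bp at chr1:44126006-44126475 (hg19), 10.2 kb downstream of the start of KDM4A, a histone H3 lysine demethylase gene. It held 110 tags at a fold of 29.59. The second peak, with 141 tags and a fold of 23.82, was 40.3 kb upstream of ETV6, an ETS-family repressor gene. The next was 9062 bp upstream of SMAD7, an inhibitor of TGF-beta signalling, at chr18:46486143-46486800, with 115 tags and a fold of 21.74. The peaks that followed were nearest to ING2 (79 tags), PJA1 (127 tags, on chromosome X), TESPA1 (128 tags), MIR9-2HG (76 tags), PALS2 (138 tags), AKR1D1 (75 tags), HPCAL4 (124 tags), NKX6-1 (70 tags), PARP11 (185 tags), TREX1 (84 tags), SHB (109 tags) and PRRC2C (69 tags). MIR9-2HG hosts the neural microRNA miR-9, and NKX6-1 is a homeobox gene of ventral neural tube and pancreas. Among these 15 peaks the one nearest to PARP11 had the most tags of the whole list, and also the lowest fold of the 15, 12.71. A nearest gene is a position only: several of these starts were over 100 kb away, as for AKR1D1 (167 kb), NKX6-1 (161 kb), PARP11 (152 kb), SHB (145 kb) and PALS2 (138 kb).

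All 32 listed core pluripotency genes had a peak within 50 kb that was nearer to it than to any other gene start. The same held for 12571 of 19153 assignable genes (65.6%). Within 5 kb the count was 23 of 32, against 36.7% of all genes, and within 1 kb it was 11 of 32, against 25.6%. At least 3 peaks were near 13 of the 32, against 16.4% of all genes. With only the peaks at a false discovery rate of 5% or less, the counts were 19 of the 32 within 50 kb, against 23.9% of all genes, and 4 with 3 or more peaks, against 0.731%. These genes also had more room than most: the stretch within 50 kb that was nearest to their start, called the catchment here, had a median of 76.8 kb against 57.1 kb for all genes. Per Mb of catchment there were 43.1 peaks and 807 tags, against 21.6 peaks and 226 tags over all genes. Their 5-Mb neighbourhoods held a median of 110.5 peaks against 95, and the part of that difference in the counts was not tested. The list was chosen with earlier results of these data known.

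The genes of the factors mapped in the series each had a peak within 5 kb of their start. POU5F1 had a peak of 57 tags and a fold of 19.7, 2103 bp upstream of its start at chr6:31140554-31141165, and one of 15 tags and a fold of 8.22, 1218 bp downstream. The upstream peak had the higher tag count and the higher fold. SOX2, the partner of OCT4 on the composite element, had 6 peaks. The strongest held 41 tags at a fold of 25.81, 3986 bp downstream of the start at chr3:181433707-181434116, and a pair at 44.1 and 44.7 kb downstream held 39 and 34 tags at folds of 24.5 and 15.91. The other 3 SOX2 peaks held 5, 10 and 14 tags at folds of 5.49 to 11.61. NANOG, a homeobox factor, had a peak of 23 tags and a fold of 13.21 over its start at chr12:7941675-7942034, with the summit 58 bp upstream of the start, and one of 13 tags 17.5 kb downstream.

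Several peaks near pluripotency markers were stronger than those at NANOG. TERF1, the gene of a telomere repeat binding protein, had 1 peak of 56 tags and a fold of 25.18, 6427 bp upstream, which had the highest score of any core gene (325.33). TRIM71, which encodes an RNA-binding repressor of differentiation, had 9 peaks with 238 tags in all, of which 103 were in 1 peak 36.8 kb upstream at a fold of 13.82. L1TD1, the gene of a transposon-derived RNA-binding protein, had 6 peaks, the strongest with 76 tags and a fold of 14.48 at 3449 bp downstream. DPPA5 had 44 tags (fold 18.32, 4558 bp downstream), UTF1 had 44 tags (fold 19.52, 1657 bp downstream), and ZFP42, the gene of the marker REX1, had 26 tags (fold 23.73, 36.4 kb downstream). These 3 peaks were 368 to 624 bp wide.

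At PODXL, GDF3 and LIN28A the peaks with the most tags had folds under the list's median of 8.71. PODXL, which encodes the podocalyxin that carries the TRA-1-60 epitope, had 6 peaks with 220 tags in all, and its largest, 1519 bp wide and 47.9 kb upstream, held 114 tags at a fold of only 4.88. GDF3, a TGF-beta family ligand gene on chromosome 12, had 1 peak of 81 tags over its start, 1884 bp wide, at a fold of 8.29 and a score of 54.64. Its tag count was thus above that of any single peak at SOX2 or POU5F1, and its fold and score were below those of their strongest peaks. LIN28A, the gene of an RNA-binding inhibitor of let-7 processing, had 34 tags at a fold of 6.99 and a second peak of 19 tags at 5.23. FOXD3 had 7 peaks of 6 to 29 tags at folds of 5.01 to 11.94, and TBX3 had 6 of 9 to 27 tags at folds of 6.24 to 13.32.

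None of the remaining core genes had a peak of more than 23 tags. The highest score among them was 108.94, at TCF3, above the 80.33 of the NANOG start peak. KLF4 had 1 peak of 6 tags (fold 8.45, 22.5 kb upstream), TFCP2L1 had 2 of 7 and 8 tags, and ESRRB had 4 of 6 to 8 tags. LIN28B had 2 peaks of 5 tags, the lowest tag count in the list, and MYC had 2 of 6 and 8 tags. MYCN had 4 peaks of 11 to 20 tags, SALL4 had 4 of 7 to 14 and CDH1 had 3 of 8 to 15. KLF5 had 2 of 5 and 9 tags, the larger at a fold of 20.93. The neighbours DPPA2 and DPPA4 each had a peak over the start, with 20 and 12 tags at folds of 10.12 and 7.85. DNMT3B, a de novo DNA methyltransferase gene, had 3 peaks of 7 to 10 tags. TCF3 had 4 peaks, of which 1 with 16 tags and a fold of 16.61 lay 423 bp upstream. PRDM14 had 11 tags at 324 bp upstream and 16 tags at 9867 bp downstream. The last of the list had 13 tags (CRIPTO), 17 tags (DPPA3) and 12 tags (ZSCAN10) in their strongest peak.

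**Figure D1:**
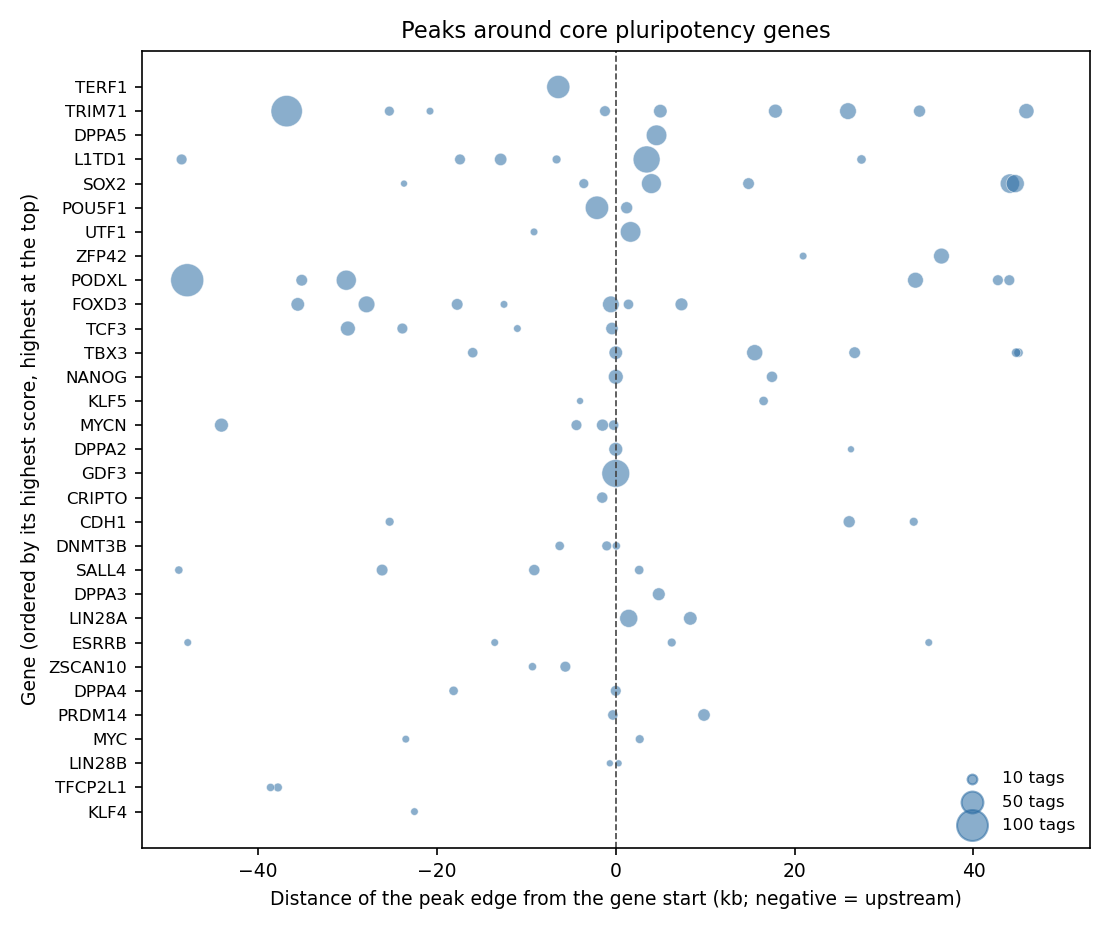
Peaks within 50 kb nearest to the core pluripotency genes whose values are given in the text, with the distance of the peak edge from the gene start on the x axis (kb, negative upstream) and 1 gene per row, ordered by its highest score. Circle area is proportional to the tag count; TERF1 is at the top with 1 peak of 56 tags, TRIM71 below it has 9 peaks, and KLF4 at the foot has 1 peak of 6 tags.

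Signalling genes were near peaks as strong as those at the core factors, with SMAD7 and LEFTY1 over 100 tags. Of 26 Nodal, TGF-beta and BMP genes, 24 had a peak within 50 kb (92.3%) and 14 within 5 kb (53.8%), where the shares of all genes were 65.6% and 36.7%. After SMAD7, the highest scores were at BMP4 (40 tags, fold 17.69, 25.8 kb upstream), LEFTY1, a Nodal antagonist gene (107 tags, fold 20.89, 9692 bp upstream), and ID3, a BMP target gene (64 tags, fold 20.46, 3299 bp downstream). Of 20 FGF and ERK genes, 18 had a peak within 50 kb (90.0%) and 15 within 5 kb (75%). The strongest were feedback inhibitors: SPRED2 (54 tags, fold 25.86, 5391 bp upstream) and DUSP6 (98 tags, fold 14.35, 1553 bp downstream), followed by the ETS factor gene ETV1 (54 tags, fold 13.48, 122 bp upstream) and the adaptor gene FRS2 (29 tags, fold 17.42). Of 24 WNT genes, 21 had a peak within 50 kb (87.5%). The highest scores were at the ligand WNT3 (62 tags, fold 23.06, 45.8 kb downstream) and WNT5B (35 tags). The repressor TCF7L1 (20 tags, fold 19.31) and the WNT antagonist SFRP2 (64 tags, fold 11.99, 682 bp upstream) followed. These lists had more room than all genes: median catchments were 86.6 kb (Nodal), 100 kb (FGF) and 100 kb (WNT), against 57.1 kb. Per Mb of catchment they had 29.0, 26.1 and 24.9 peaks, against 21.6 over all genes.

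Genes of the trophectoderm, neuroectoderm and mesendoderm lists were also near peaks, and their expression was not measured here. All 16 trophectoderm genes had a peak within 50 kb, against 65.6% of all genes, at 37.96 peaks per Mb against 21.6. CDX2, the trophectoderm homeobox gene, had its strongest peak 2701 bp downstream (69 tags, fold 13.95), TFAP2A had 52 tags at 1853 bp upstream (fold 21.01), and TEAD4 had 41 tags at 38.9 kb. Of 32 neuroectoderm genes, 26 had a peak within 50 kb (81.3%). Their median catchment was 84.7 kb, against 57.1 kb for all genes, and they had 28.1 peaks per Mb. GBX2 had 107 tags at a fold of 19.57, 8092 bp downstream, SOX11 had 37 tags, SOX21 had 41 tags, and HESX1 had 26 tags with the peak edge 1 bp from its start. Of 20 mesendoderm genes, 17 had a peak (85.0%), at 20.2 peaks per Mb, just under the 21.6 of all genes. KDR (25 tags, fold 24.42) had the highest score there, then MESP2 (35 tags), PDGFRA (15 tags) and EOMES (24 tags).

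Chromatin, cell cycle and retinoic acid genes were mixed. Of 29 assignable Polycomb and chromatin regulator genes, 24 had a peak within 50 kb (82.8%) and 12 within 1 kb (41.4%), against 65.6% and 25.6% of all genes. REST, the repressor of neuronal genes, had the highest score of any peak within 1 kb of a start: 51 tags at a fold of 30.44, 83 bp upstream at chr4:57773597-57773958. PHC1 had 64 tags (fold 16.39) and PHC2 had 26 tags. The median catchment of this list was 78.0 kb, with 30.5 peaks per Mb, against 57.1 kb and 21.6 for all genes. Of 17 assignable cell cycle and growth genes, 12 had a peak within 1 kb (70.6%, against 25.6% of all genes), and 2 had 3 or more peaks (11.8%, against 16.4%). CCND3 (30 tags), CDKN1C (31 tags, start inside), CCND2 (30 tags) and MDM2 (12 tags) had the highest scores of that list. Of 19 retinoic acid genes, 18 had a peak within 50 kb (94.7%, against 65.6%), led by the receptor RARG (26 tags, fold 13.11, 3032 bp downstream) and the reductase DHRS3 (19 tags). ALDH1A2 had 7 tags and RXRG had 15 in their highest-scoring peaks. NT2/D1 cells are known for neuronal differentiation under retinoic acid.

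The HOX and germ cell lists had the lowest share of genes with a peak among the lists other than the controls. Of 30 HOX genes, 13 had a peak within 50 kb (43.3%, against 65.6% of all genes). Their median catchment was 12.9 kb in these dense clusters, and their 32.5 peaks per Mb were above the 21.6 of all genes. On chromosomes 1, 7, 12 or 21, set apart below, were 14 of the 30, against 21.95% of all genes. HOXB1 had 38 tags at a fold of 24.32 over its start, while HOXA4 (11 tags) and HOXD3 (18 tags) had folds of 10.85 and 7.23. Of 18 assignable germ cell genes, 11 had a peak within 50 kb (61.1%), a share near the 65.6% of all genes. After DPPA5, also a member of the core list, PIWIL1 had 32 tags at a fold of 18.86, NANOS2 had 14 tags and STK31 had 7.

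Genes of tissues unlike these cells served as the background. Within 50 kb a peak was near 10 of 18 hepatocyte genes (55.6%), 13 of 18 muscle genes (72.2%) and 11 of 18 immune genes (61.1%), around the 65.6% of all genes. Within 5 kb the counts were lower, 4, 4 and 5 of 18 (22.2, 22.2 and 27.8%), against 36.7% of all genes. Within 1 kb they were 2, 0 and 2 of 18, against 25.6% of all genes. Muscle genes had 31.9 peaks per Mb, above the signalling lists. Of the muscle genes, 7 of 18 are on chromosomes 1, 7, 12 or 21 (below), against 21.95% of all genes. The part of these chromosomes in the peaks per Mb was not tested. Most of the strongest peaks of these lists were small, as at CYP2E1 (10 tags), HPX (17 tags), TAT (8 tags), CPS1 (6 tags), ACTA1 (18 tags), MYH2 (10 tags), TNNT2 (19 tags) and MYL2 (6 tags). The exceptions were in the immune list: ZAP70, a T cell kinase gene, had 25 tags at a fold of 20.44, and PAX5, a B cell factor gene, had 29 tags at 7.69. ITGAM had 9 tags and LCK had 30. A peak count of 1 within 50 kb was thus common near genes of any kind, and tags per Mb did not set all the controls apart. They were 133 for hepatocyte, 238 for immune and 285 for muscle genes, against 226 over all genes. Mesendoderm (205), germ cell (244) and retinoic acid genes (257) lay within the range of the controls, and cell cycle genes (289) just above it. The other lists were higher: WNT 380, neuroectoderm 384, HOX 386, FGF and ERK 390, Polycomb 450, Nodal 455, trophectoderm 532 and core 807. Several genes are in more than 1 list, among them EOMES, DPPA5 and DNMT3B.

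**Figure D2:**
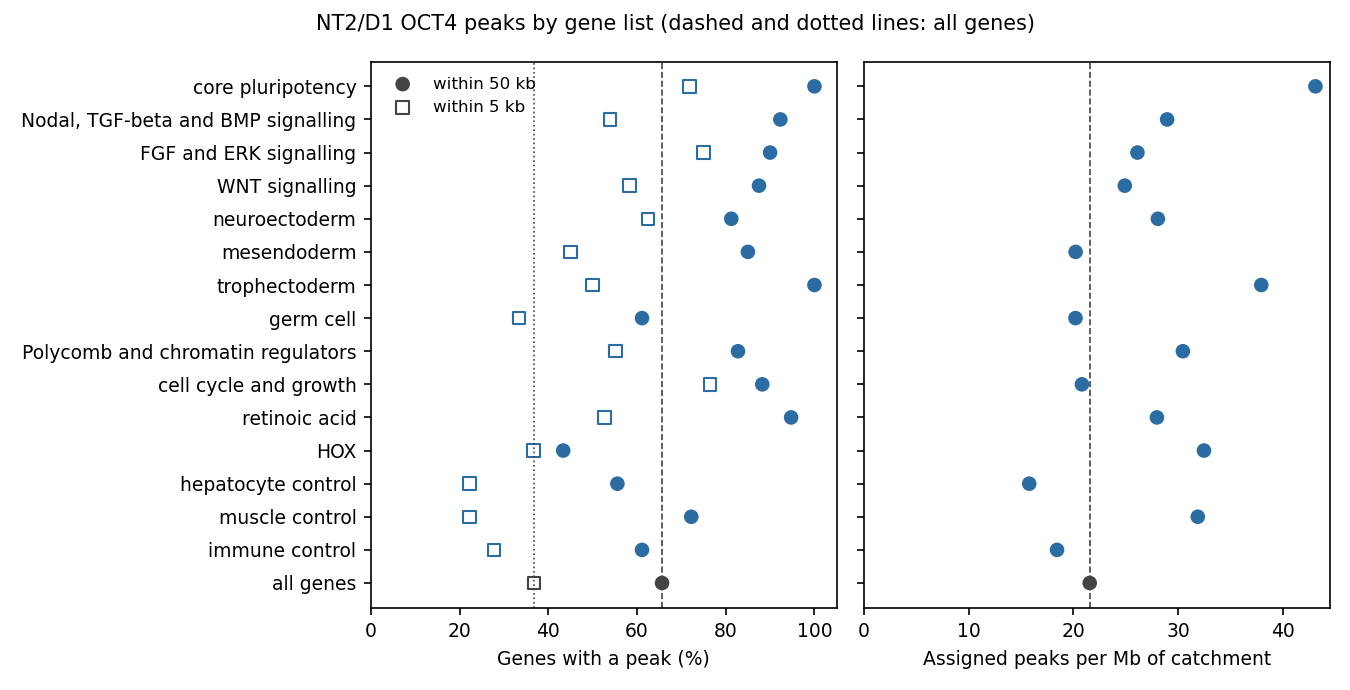
Left, the percentage of each list's assignable genes with a peak within 50 kb (filled circles) and within 5 kb (open squares); right, assigned peaks per Mb of catchment. Lines mark all 19153 genes (65.6%, 36.7% and 21.6 peaks per Mb); the core pluripotency list is highest on the right, and the 3 control lists lie under the all-gene line for peaks within 5 kb.

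OCT4 peaks were mostly distal. The median distance from the nearer peak edge to the nearest gene start was 40.8 kb (95% interval 39.9 to 41.6). A start lay inside 1996 peaks (4.33%, 4.15 to 4.52), 3557 more were within 1 kb (7.72%) and 2959 at 1 to 5 kb (6.42%). Peaks at 5 to 50 kb numbered 16571 (35.95%), those at 50 to 500 kb 18484 (40.1%), and 2527 were farther than 500 kb (5.48%). Within 1 kb there were 5553 peaks (12.05%, 11.75 to 12.35). In the list titled NANOG, which carries OCT4 in its source name, the share within 1 kb was 4.44%, so this value depends on which label is followed.

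Peaks over gene starts held more tags at lower folds than distal ones. The median was 12 tags and a fold of 8.27 where the start lay inside, 9 tags and 8.01 up to 1 kb, 8 tags and 8.14 at 1 to 5 kb, 7 tags and 8.71 at 5 to 50 kb, 7 tags and 9.16 at 50 to 500 kb, and 6 tags and 10.22 beyond 500 kb. Median width fell from 396 bp to 250 bp along the same classes. Tags and width move together across peaks (Spearman rho 0.808, n = 46094), and a wider peak is more likely to hold a start, so these 3 measures are not separate. At least 20 tags were in 20.1% of the peaks with a start inside, in 4.99% of those beyond 500 kb and in 7.31% of all.

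**Figure D3:**
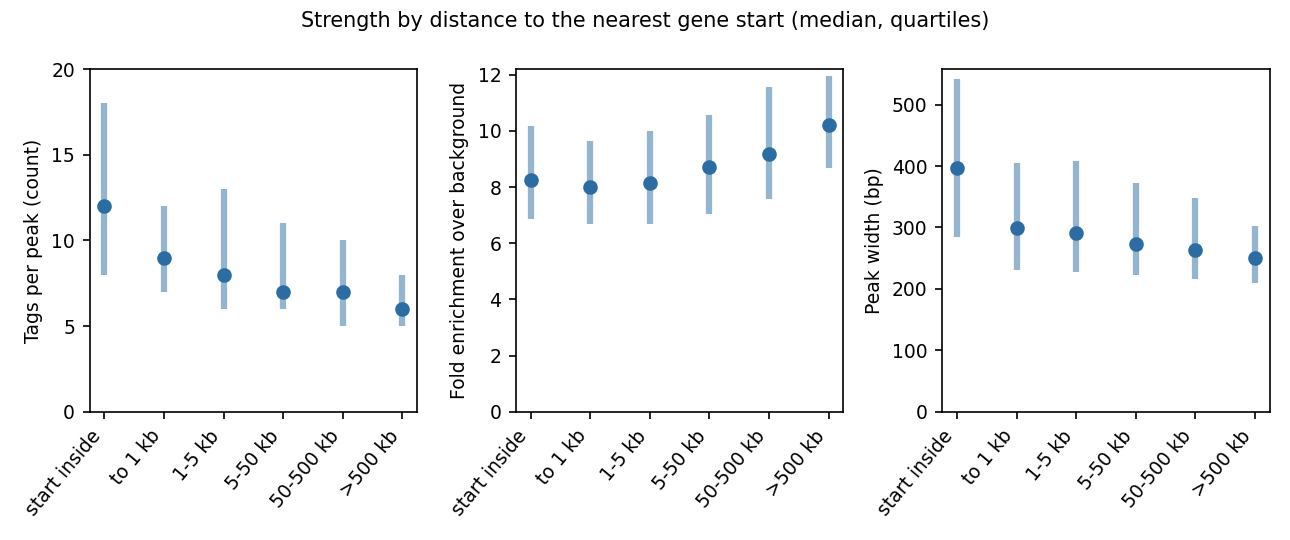
Tags per peak, fold enrichment and peak width by distance to the nearest gene start; points are medians over the peaks of a class and bars run from the lower to the upper quartile. Tags and width fall with distance, from 12 to 6 tags and from 396 to 250 bp, while the median fold is lowest at 8.01 within 1 kb and highest at 10.22 beyond 500 kb.

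Summits gathered at the start itself, slightly on the transcribed side. For 1809 peaks with a start inside and a start position that could be recovered, the summit was at a median of 28 bp downstream of the start (quartiles -66 and 101), and 55.2% were within 100 bp of it (52.9 to 57.4). Peaks with a start inside had a median width of 396 bp, so a summit near the start follows in part from how they were picked. Among all peaks with a recovered start, the 250-bp step after the start held 1402 summits. The step before it held 1078, against 82 in the step that begins 5 kb upstream. At C12orf57, the summit was 88 bp upstream of the start, at HDAC9 62 bp upstream, and at PIPOX 36 bp downstream. GDF3 differed, with its summit 974 bp downstream in a peak of 1884 bp. Away from starts the downstream side held more peaks. Of those with no start inside, 19741 were upstream of their nearest start (44.8%, 44.3 to 45.2) and 24357 downstream. The share of the genome on either side of its nearest start was not measured, so these shares show no preference for a side.

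**Figure D4:**
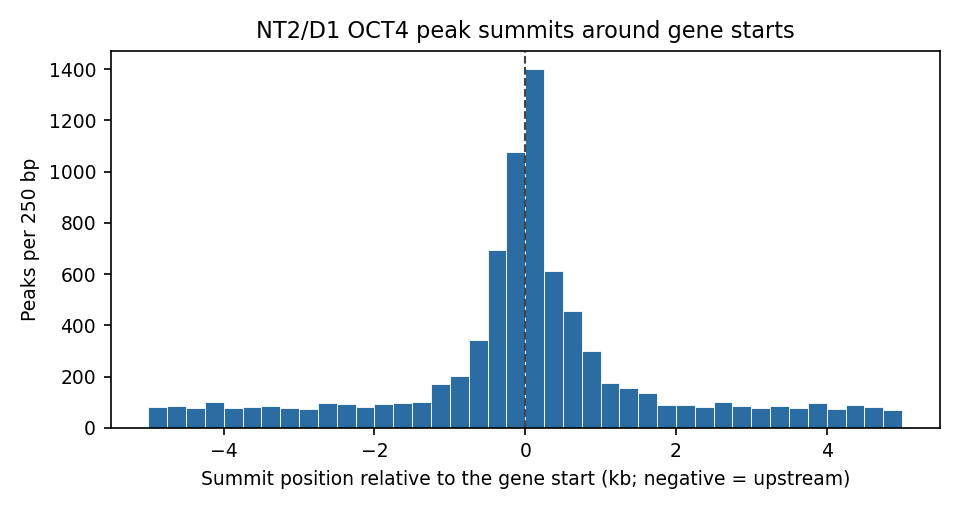
Number of peak summits in 250-bp steps from 5 kb upstream (negative) to 5 kb downstream of the nearest gene start, which is the dashed line. The 2 steps beside the start hold 1078 and 1402 summits, and the outermost step upstream holds 82.

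Nearness to gene starts did not rise steadily with score. It was lowest among the very highest scores, and from the second decile on it broadly fell with the score. Among the 100 highest scores, 2 peaks were within 1 kb of a start and 51 were beyond 50 kb. Within 1 kb there were 47 of the first 1000 (4.70%), 13.6% of the first 5000 and 16.0% of the first 10000. By deciles of the list from the strongest, the share was 12.8, 18.8, 15.8, 11.9, 12.1, 9.83, 10.8, 9.76, 8.87 and 9.81%. The share with a start inside was 8.48% in the first decile, 9.42% in the second and 1.95% in the last. The proximal share, within 1 kb, was highest in the second decile, not the first. By tags, it was 5.73% in peaks of 5 or 6 tags, 18.6% at 10 to 19, 19.1% at 20 to 49 and 11.5% at 50 or more (8.17 to 15.9).

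The proximal peaks with the most tags differed in fold, from 28.85 at HDAC9 to 4.2 at PDE4DIP, and all were wider than the median of the list. HDAC9 (62 tags, fold 28.85), GIMAP5, a lymphocyte GTPase gene (63 tags, fold 22.94), PRICKLE1, a planar cell polarity gene (72 tags, fold 13.74), LOC100131496 (65 tags, fold 13.22) and SFRP2 (fold 11.99) had folds above the list's median of 8.71, with widths of 476 bp at GIMAP5 to 949 bp at SFRP2 against a median of 272 bp over the list. At C12orf57 there were 82 tags at a fold of 4.69, at SCNN1A 61 tags at 4.58, and at PDE4DIP 94 and 63 tags in 2 peaks at 4.2 and 4.43. PDE4DIP has near-identical copies, so its peaks are uncertain in position. The 5 widest peaks of the list were nearest to GLI3 (1994 bp, 73 tags, fold 4.18), NUDT8 (1909 bp, fold 3.96), GDF3, SCNN1A (1861 bp) and FOXK1 (1674 bp, 126 tags, fold 17.27). All but the FOXK1 peak had folds under the list's median of 8.71.

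The authors' false discovery rate (FDR) was highest at both ends of the list. MACS estimates it by exchanging ChIP and control and setting the control peaks at a score against the ChIP peaks. The value thus belongs to the list down to that score, not to a single peak. Near the top few ChIP peaks reach a score, so very few control peaks already give a high percentage. The KDM4A peak had an FDR of 50%, the ETV6 peak 66.67% and the SMAD7 peak 50%, and none of the first 58 peaks by score was at 5% or below. The first at or under 5% was number 59, with a score of 306.42, and the last was number 10742, with a score of 45.63. In all, 10336 peaks (22.4%, 22.05 to 22.8) were at or under 5%. The NANOG start peak was at 1.13%, the strongest POU5F1 and SOX2 peaks at 1.8% and 1.95%, TERF1 at 6.52% and REST at 6.12%. A limit of 5% therefore leaves out the 15 strongest peaks named above, TERF1 and REST with the weak ones.

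**Figure D5:**
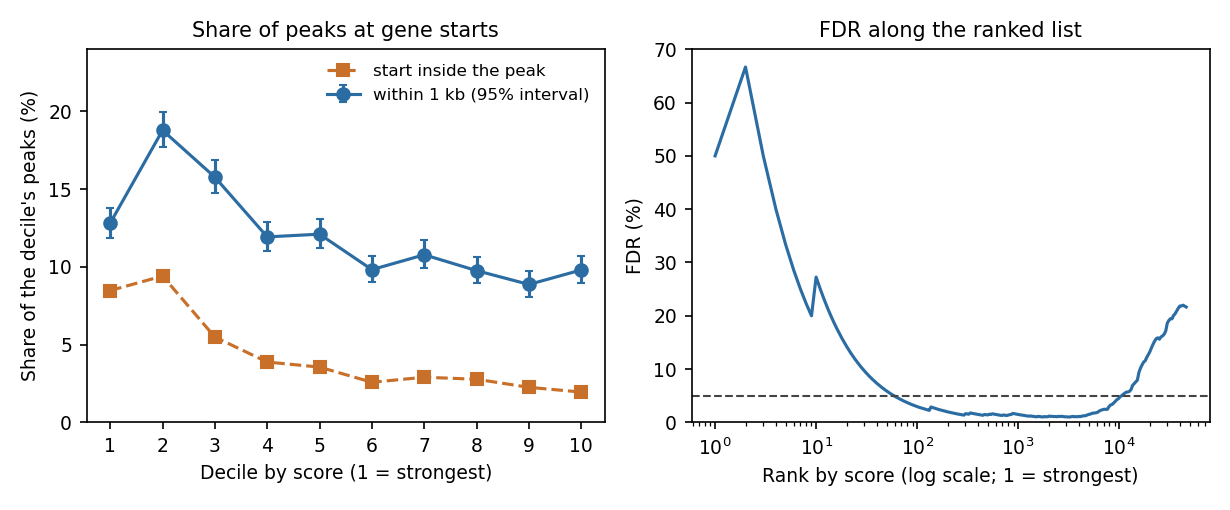
Left, the share of peaks within 1 kb of a gene start (circles, with 95% Wilson intervals) and with a start inside (squares) in each decile of the list by score, the strongest first; right, the authors' FDR along the list by rank on a log axis, with 5% dashed. The share within 1 kb is highest in the second decile at 18.8%, and the FDR of the first 58 peaks lies above 5%.

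Several peaks near 1 gene were common. Of 19153 assignable genes, 5936 had 1 peak within 50 kb, 3487 had 2, 2494 had 3 or 4, and 654 had 5 or more (3.41%). With peaks at an FDR of 5% or less, 3 genes had 5 or more, with the upper 50% of peaks by score 68, and within 5 kb 3. Without chromosomes 1, 7, 12 and 21 and their genes, 393 had 5 or more. The 6635 genes with 2 or more held 76.2% of the 24916 assigned peaks. Under the FDR limit 774 genes had 2 or more, with the upper 50% by score 2772, within 5 kb 1202, and in the list titled NANOG 4189. Genes with more peaks had more room and stood in denser stretches: the median catchment was 46.9 kb for genes with no peak and 100 kb for those with 5 or more, and the median number of peaks in their 5-Mb bin was 88 and 115.5.

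ARID1A, a subunit gene of the BAF chromatin remodelling complex, and ESRRG, an orphan nuclear receptor gene, had the most peaks, 11 each. The ARID1A peaks spanned 47.7 kb with 177 tags, 5 of them within 5 kb, in the 5-Mb bin with the most peaks of any (229). The ESRRG peaks spanned 410 kb around several starts, with 104 tags. PRKAG2, SMAD3 and CDYL had 10 peaks each, with 131, 99 and 94 tags and catchments of 252, 195 and 284 kb from more than 1 start. SMAD3 is the signal transducer of Nodal and activin, and CDYL encodes a chromodomain corepressor. TRIM71 came next: its 9 peaks in 100 kb held 238 tags, the highest sum among the genes named in this paragraph. Its median was 19 tags per peak, against 20 at C11orf96, and 103 of its tags were in 1 peak. C11orf96 (168 tags), NFASC (133), AHCYL2 (130), SOX5 (117), CREB5 (115), GRB10 (94), USP3 (85) and MAP2 (83) also had 9, with medians of 7 to 20 tags. SEC22B had 9 peaks with 191 tags, and its position is uncertain because of near-identical copies. Apart from TRIM71, none of these genes is in the core list.

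Neighbouring peaks had a median gap of 32.3 kb (quartiles 12.6 and 72.4). Joining peaks 12.5 kb or less apart, a distance chosen after the data were seen, left 26400 peaks alone (57.3%) and gave 2203 groups of 3 or more with 7626 peaks (16.5%). The largest had 10 peaks. One, at chr1:156588768-156659811, spanned HAPLN2, BCAN and NES with 261 tags. NES encodes nestin, the intermediate filament of neural progenitors. The other, at chr1:25558625-25610768, spanned SYF2, RSRP1 and RHD with 124 tags. A group of 8 began 1207 bp upstream of the start of TRIM71 and held 150 tags. These groups were named after their values were seen.

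Tags, folds and widths differed between chromosomes, and so did the share of peaks within 1 kb. That share was lowest on chromosome 21 (8.06%) and highest on chromosome 19 (24.04%). It depends also on how densely gene starts lie on a chromosome, which was not measured here. The header gives 10218752 unique ChIP tags of 16118018 (63.4%) and 6479071 unique IgG tags of 12359411 (52.4%), and peaks held 458137 tags (4.48% of the unique ones). The median peak had 7 tags (quartiles 6 and 11), 16930 peaks (36.7%) had 5 or 6, and 261 had 50 or more. Chromosomes 1, 7, 12 and 21 were set apart after the data were seen, because each had a median of at least 9 tags. Their higher tag counts follow from that choice, and width moves with tags. Together their median was 9 tags, a fold of 8.01 and a width of 305 bp, against 7 tags, 9.16 and 265 bp elsewhere. The share of peaks within 1 kb was 11.96% on them and 12.08% elsewhere. These 4 chromosomes held 12848 peaks (27.9%), 131 of the 261 with 50 or more tags, and 145 of the 191 wider than 1 kb. Of the core genes 8 are on them, among them NANOG, GDF3, L1TD1 and PODXL, as are ARID1A, NES, C12orf57 and SCNN1A. They held 39.9% of the genes with 5 or more peaks, against 21.95% of all genes. POU5F1, SOX2, TRIM71, REST and SMAD7 are not. The part of chromosome copy number or local tag density in these values was not tested.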

How the data were processed

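The analysis used the deposited peak list of 1 NT2/D1 library, and the other lists only to recover gene starts and for 1 alternative. Reads were 50-base SOLiD tags, per the labels' protocols and the file headers, and per the submitters' processing notes they were placed on hg19. Peaks were called by MACS against an IgG library with a band width of 200, a model fold of 5 and a p-value cutoff of 0.001, per the file headers. Not given in the sources used here are the version of MACS, the aligner and which labelled IgG sample was the control.

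The deposited tag count is the unscaled number of ChIP tags in a peak. Enrichment was deposited as a fold, the ratio of ChIP to background from MACS, and FDR was deposited in percent. The name of the deposited score column was overwritten; it was read as 10 times the negative log10 of p because its lowest value was 30. All are the authors' values and were used only within the list. The deposited columns name the nearest gene start on either side and its distance from the peak edge; their direction was read from the data.

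Gene starts were recovered from those distances over 6 lists: of 17123 accessions with 2 or more rows and a strand, 17023 (99.4%) gave 1 position within 1 bp. Symbols came from the RefSeq table of GRCh38.p14 for 19786 of 20723 accessions (95.5%), with names only taken from it; 138 gene fields held a date. A peak was assigned to its nearest start within 50 kb. Shares have 95% Wilson intervals and medians exact order-statistic intervals. With 1 library there is no test. The scripts (Python 3.11.15, pandas 2.3.3, numpy 2.4.6, scipy 1.17.1) were tested on simulated data.

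Members and gene lists were chosen with earlier results of these data known. Named genes are the core list, the nearest genes of the 15 highest scores, the 15 genes with the most peaks, up to 4 per other list by highest score, the 10 proximal peaks with the most tags and the 5 widest; some of them are not reported here. Alternatives were an FDR limit of 5%, the upper 50% by score, summit distances, a 5 kb window, joined peaks, the widest 1% left out, the list titled NANOG and, chosen after seeing the data, 4 chromosomes left out.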

Additional observations from a re-analysis of the deposited data

Results flagged for a closer look

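Outside chromosomes 1 to 22 and X, the OCT4 list held 75 peaks (0.162%) that entered no comparison. One of them covered 1149 bp of mitochondrial DNA and held 948 tags at a fold of 5.42 and a score of 1081.11, above every score on the chromosomes described, where the highest was 607.69 near KDM4A.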

How the results depend on the processing

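No paired analysis was possible because the comparison rests on 1 library. Of 57 alternative values, 31 stayed within their interval or within 1.5 times the count and 26 moved. With peaks at an FDR of 5% or less, which leaves out the strongest peaks too, 19 core genes kept a peak within 50 kb and 4 had 3 or more, 774 genes had 2 or more peaks and 3 had 5 or more, the share within 1 kb was 16.1%, and the median tags were 15 within 1 kb and 13 beyond 50 kb. With the upper 50% by score, the values were 8 core genes with 3 or more peaks, 2772 and 68 genes, 14.3%, and 12 and 9 tags. Within 5 kb in place of 50 kb, 1 core gene had 3 or more peaks, 1202 genes had 2 or more and 3 had 5 or more. In the list titled NANOG, whose source name says OCT4, 5 core genes had 3 or more peaks, 4189 genes had 2 or more, the median distance was 46.2 kb, 4.44% of peaks were within 1 kb and peaks beyond 50 kb had a median of 9 tags. Counted from the summit, 11.1% of peaks were within 1 kb. Without the widest 1% of peaks, 21.96% had an FDR of 5% or less. Without chromosomes 1, 7, 12 and 21, an alternative chosen after seeing the data, 393 genes had 5 or more peaks, the median distance was 41.6 kb and peaks within 1 kb had a median of 9 tags. Fewer peaks or a smaller window give smaller counts by construction; for the other values the cause was not tested. With 5 or 6 tags in 36.7% of the peaks, counting error limits single weak peaks most.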
